A study of Mus musculus with 5 samples.

Results

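The genes described here are 41 components and feedback inhibitors of the NF-κB pathway, listed by name among the 21951 protein-coding genes of the mouse annotation (GRCm38/mm10, GENCODE release 21 for mouse). A gene was counted as holding a peak when a ChIP-seq summit, the base of highest signal in a peak, lay inside the gene body or at most 50 kb upstream of the gene start. ChIP-seq was performed on C57BL/6 wildtype fibroblast-like synoviocytes (FLS), the fibroblasts of the joint lining, that were left untreated or exposed to TNF at 10 ng/mL over 16 h. Chromatin was precipitated with an antibody against SOX4 or against the p65 protein RELA, which gave 4 peak lists named by factor and state (SOX4 TNF is the list of the SOX4 antibody in TNF-treated cells). DNA of 3 cultures was pooled into each library, so every condition is 1 library, the spread between cultures is unknown and no test between conditions could be made. Peaks were called against input DNA, for which the labels name 1 library, from untreated FLS, and no separate control for TNF-treated cells.

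NF-κB is a family of dimeric transcription factors, of which RELA paired with p50 is the form classically activated by TNF. In resting cells the dimers are held in the cytoplasm by IκB proteins, until signals from the TNF receptor pass through adaptors and ubiquitin ligases to the IKK complex, which marks IκB for destruction. Several of the genes that the dimers switch on, such as those for IκBα and A20, encode proteins that turn the pathway off again.

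The SOX4 lists held 192 peaks without TNF and 543 with TNF, and the RELA lists held 561 and 2502. The median fold enrichment over the background was 8.46, 8.56, 8.15 and 9.62 in the same order, and read depths were not analysed here. A larger list places a peak at more genes of every kind, so each count of the 41 genes is given beside the share of all protein-coding genes.

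In the RELA TNF list 7 of the 41 genes held a peak, and each of the 7 held exactly 1. They were Nfkbib and Nfkbie, which encode the inhibitors IκBβ and IκBε, the receptor gene Tnfrsf1a, the adaptor genes Traf1, Traf2 and Traf3, and Sqstm1, which encodes the scaffold p62.

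The 7 genes with a RELA TNF peak were 17.1% of the 41 (Wilson 95% interval 8.53% to 31.3%, counting error only). Of all protein-coding genes 9.25% held such a peak, a share inside that interval. Among the 17056 protein-coding genes whose search window, the body plus 50 kb, was as long as those of the pathway genes (53238 to 156893 bp), the share was 8.39%, just below the interval. The 41 genes were chosen with earlier results of these data known. The paper itself shows Nfkbib and Sqstm1 as examples of genes with RELA-only peaks. The gap to 8.39% is therefore a description and not a test. In the RELA untreated list 1 gene held a peak, Traf2, which is 2.44% of the 41 (0.432% to 12.6%), beside 1.51% of all protein-coding genes. A RELA TNF peak without a RELA untreated peak was found at 6 genes, 14.6% of the 41 (6.88% to 28.4%). Of all protein-coding genes 7.89% did so, a share inside that interval.

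No gene of the 41 held a peak in the SOX4 untreated or the SOX4 TNF list, where 0.825% and 2.03% of all protein-coding genes did. The upper end of the Wilson interval for 0 of 41 is 8.57%, so both background shares lay within it. Over the 4 lists together, 7 genes held a peak, and 9.98% of all protein-coding genes held at least 1.

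**Figure D1:**
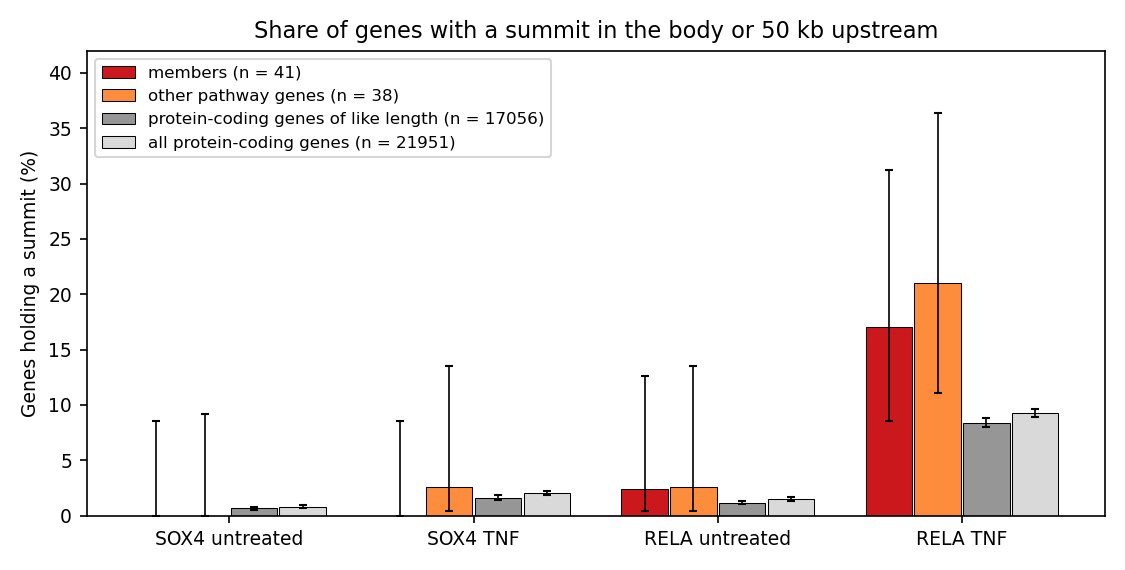
Bars give the percent of genes with a summit in the body or up to 50 kb upstream, for the 41 pathway genes, 38 further pathway genes, 17056 protein-coding genes of like window length and all 21951 protein-coding genes, in each of the 4 lists. Error bars are Wilson 95% intervals over genes, and the interval of the 41 genes in the RELA TNF list (8.53% to 31.3%) holds the 9.25% of all genes.

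The IκB proteins retain NF-κB dimers in the cytoplasm. A RELA TNF peak was held by 2 of the 3 classical IκB genes, Nfkbib and Nfkbie, beside 9.25% of all protein-coding genes. The Nfkbib peak (chr7:28762301-28762366) lay in intron 1 of the gene, 5178 bp from its start. Its fold enrichment was 13.5 and its −log10 q was 24.8, rank 611 of the 2502 peaks by fold enrichment. The stretch is shared by 5 genes under the 50 kb limit, since Hnrnpl, Mrps12, Rinl and Sirt2 were assigned the same peak, and the nearest start was that of Sirt2 at 4401 bp. The Nfkbie peak (chr17:45562572-45562639) lay in the last of 6 exons, in the 3′ untranslated region, 6900 bp from the gene start. It had the fold enrichment of the Nfkbib peak, 13.5, as did 33 peaks of the list in all. The start of Slc35b2, 1271 bp away, was closer to it than the start of Nfkbie.

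Traf2 was the only gene of the 41 with a RELA peak in both states. TRAF2 is an adaptor that joins the TNF receptor complex and recruits ubiquitin ligases and IKK to it. Its RELA TNF peak (chr2:25552068-25552133) lay 5161 bp upstream of the start, outside any gene, and had the highest fold enrichment of the 7, 26.7, with a −log10 q of 66.9 and rank 104 of 2502. In untreated FLS the RELA peak (chr2:25552075-25552125) reached 8.09-fold enrichment with a −log10 q of 10.7, rank 317 of 561, and its summit was 7 bp from that of the TNF peak. The fold enrichment was thus 3.31 times higher with TNF, a log2 ratio of 1.73. Over the 464 sites where RELA summits with and without TNF lay within 50 bp, the median log2 ratio was 0.28 and 402 sites were higher with TNF, and the ratio at Traf2 ranked 26. These ratios compare 1 library with 1 library, and the fold enrichment takes few distinct values (294 among the 2502 RELA TNF peaks). Of the 100 bases around the Traf2 summit, 78 with TNF and 71 without it were annotated as repeat. What part this has in the ratio was not tested.

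The other adaptors with a peak lay farther from their sites. TRAF3, which restrains the alternative NF-κB pathway by holding the kinase NIK for degradation, is encoded by the gene whose RELA TNF peak (chr12:111139952-111140016) had the next highest fold enrichment, 19.5, with a −log10 q of 42.7 and rank 280. This peak lay 26390 bp upstream of Traf3, outside any gene, and Traf3 was the only protein-coding gene assigned to it. TRAF1, an adaptor that itself belongs to the known NF-κB targets, is encoded by the gene with the farthest peak (chr2:35003495-35003560), 41751 bp upstream. That summit lay in coding exon 29 of 41 of the neighbouring gene Hc, which encodes complement component C5, where the enrichment was 11.0-fold, the −log10 q 18.0 and the rank 922.

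SQSTM1, or p62, is a scaffold that binds ubiquitin chains and TRAF6 and delivers cargo to autophagy. Its peak (chr11:50217412-50217475) lay 6609 bp upstream of Sqstm1. The summit was in intron 1 of a coding transcript with 3 exons of the neighbour Mgat4b, whose annotated gene start was 6546 bp away. The fold enrichment was 15.0, the −log10 q 29.1 and the rank 481. Tnfrsf1a encodes TNFR1, the receptor through which TNF activates the classical pathway in most cells. Its peak (chr6:125318416-125318483) lay 30904 bp upstream, 4573 bp upstream of Ltbr, which encodes the lymphotoxin β receptor, and 2201 bp from the nearest start, that of Scnn1a. It was the lowest of the 7, at 8.88-fold enrichment (rank 1587) and a −log10 q of 24.6. Tnfrsf1b, the gene of the other TNF receptor, held no peak.

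**Figure D2:**
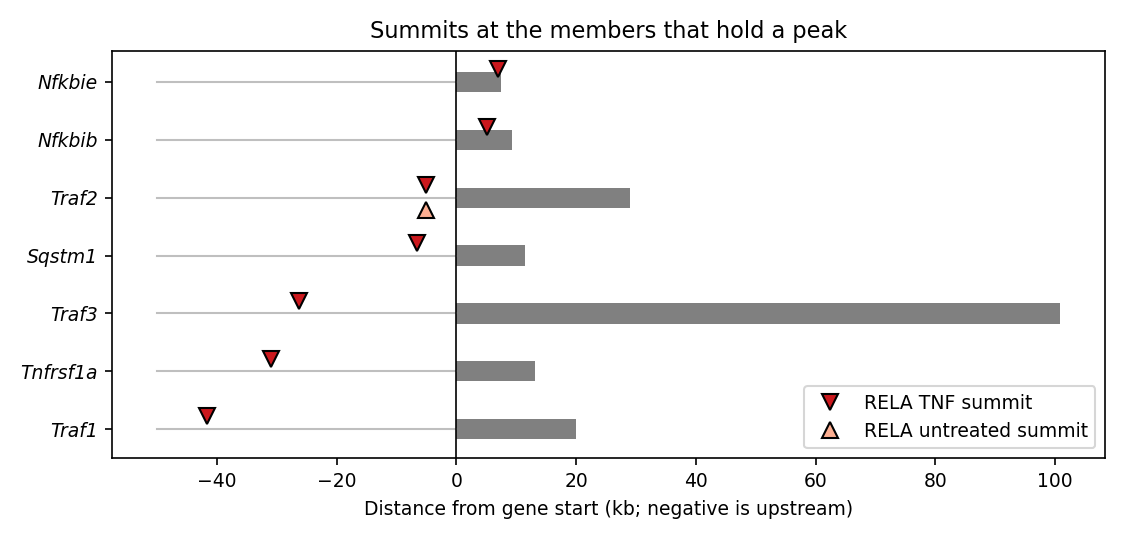
Summit positions at the 7 genes with a peak, in kb from the gene start (negative is upstream), with the searched 50 kb upstream as a line and the gene body as a grey bar. Nfkbib and Nfkbie held the summit inside the gene, the other 5 held it 5161 to 41751 bp upstream, and the RELA untreated summit of Traf2 lay 7 bp from the TNF summit.

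**Figure D3:**
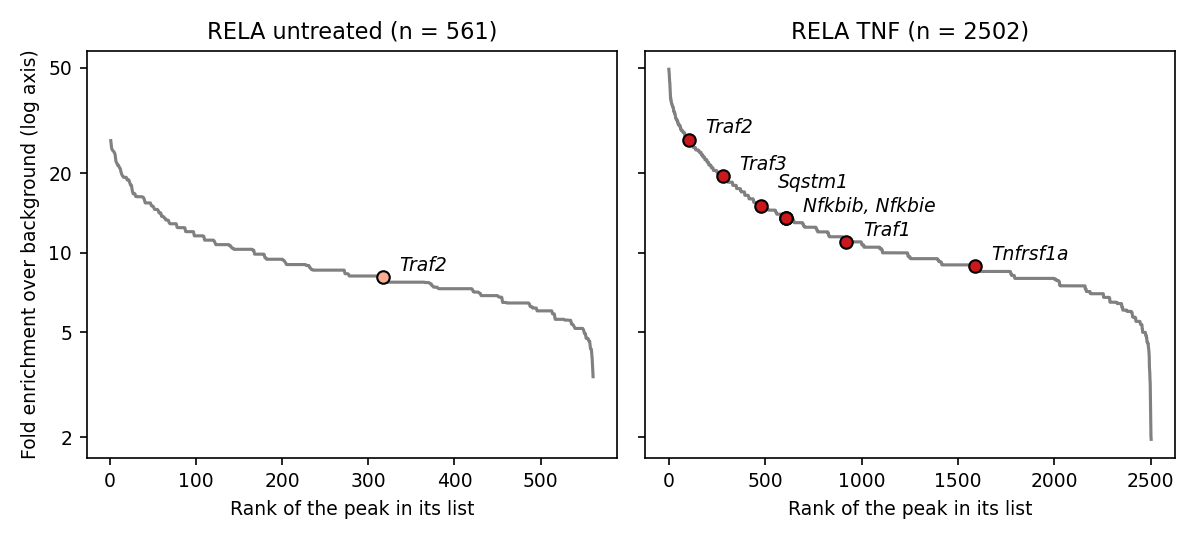
Fold enrichment over the background (log axis) of every peak, ordered from high to low, in the RELA untreated (561 peaks) and RELA TNF (2502 peaks) lists, with the peaks of the pathway genes as points. In the RELA TNF list the points run from Traf2 at 26.7 to Tnfrsf1a at 8.88, and Nfkbib and Nfkbie share 1 value.

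Across the 7 sites the median fold enrichment was 13.5, and 6 of them were above the list median of 9.62. The peaks were 64 to 68 bp wide, beside a median of 60 bp for the whole RELA TNF list. These widths are below the fragment length of 300 bp given to MACS, the peak caller. Why the peaks were this narrow was not tested. The named gene had the nearest start in 3 of 7 cases, Traf1, Traf2 and Traf3, and between 1 and 5 protein-coding genes were assigned to each site. A SOX4 TNF summit within 50 bp was found at 0 of the 7 sites (Wilson upper end 35.4%), beside 15.2% (13.9% to 16.7%) of the whole RELA TNF list. The nearest SOX4 TNF summit was 299592 to 4536185 bp away.

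The other 34 genes held no peak in any list. All 5 subunit genes were among them, namely Rela, Relb, Rel, Nfkb1 (p105, cut to p50) and Nfkb2 (p100, cut to p52), as were the classical inhibitor gene Nfkbia and the atypical IκB genes Nfkbiz, Nfkbid and Bcl3, whose nuclear products tune the dimers on DNA. The IKK complex genes Chuk (IKKα), Ikbkb (IKKβ) and Ikbkg (NEMO) had none, nor had the IKK-related kinase genes Ikbke and Tbk1 with their adaptor Tank. None was assigned to the inhibitors that act on ubiquitin chains, Tnfaip3 (A20), Tnip1, Cyld and Otulin, or to the linear ubiquitin ligase genes Rnf31, Rbck1 and Sharpin. Also without a peak were Tnfrsf1b and the receptor complex genes Tradd, Ripk1, Traf5, Traf6, Birc2 and Birc3. The rest were the upstream kinase genes Map3k7 (TAK1) and Map3k14 (NIK), and the genes Tab1, Tab2 and Tab3. By role, RELA TNF peaks were thus counted at 2 of 3 classical IκB genes, 1 of 2 receptors and 4 of 10 receptor adaptors and ubiquitin ligases, and at 0 in the other 7 roles, beside the 9.25% of all protein-coding genes. With 2 to 10 genes in a role, these counts are a description, and differences between roles were not tested.

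The distance from these 34 genes to the nearest summit of any list had a median of 376441 bp, and 30 of 34 had no RELA TNF summit within 100 kb. Distances for other protein-coding genes are not given here. Whether those of the pathway genes differ from them was not tested. Nfkbia, the gene of IκBα and a classical NF-κB target, had its nearest summit 1635132 bp away. For Tnfaip3, the A20 gene, the nearest summit of any list was a SOX4 TNF summit at 172575 bp, and the nearest RELA TNF summit was at 1077688 bp. Birc3, which encodes the ubiquitin ligase cIAP2, had a SOX4 TNF summit at 1681215 bp and a RELA TNF summit at 1836350 bp. For Nfkb1 and Nfkb2 the nearest RELA TNF summits lay at 196099 bp and 642574 bp.

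The 3 genes with the closest summits that were not counted all had them downstream of the gene. The Ikbkb summit, 23933 bp downstream in intron 11 of Polb, had a RELA TNF fold enrichment of 11.5, and the Chuk summit, 33572 bp downstream in intron 10 of Erlin1, had 9.98. At 50338 bp downstream of Relb, in intron 1 of Ppp1r37, a RELA TNF summit (7.48) and a SOX4 TNF summit (8.56) fell on the same base. On the upstream side, Traf1 at 41751 bp was the gene just inside the limit and Rnf31 at 89119 bp the first outside it.

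**Figure D4:**
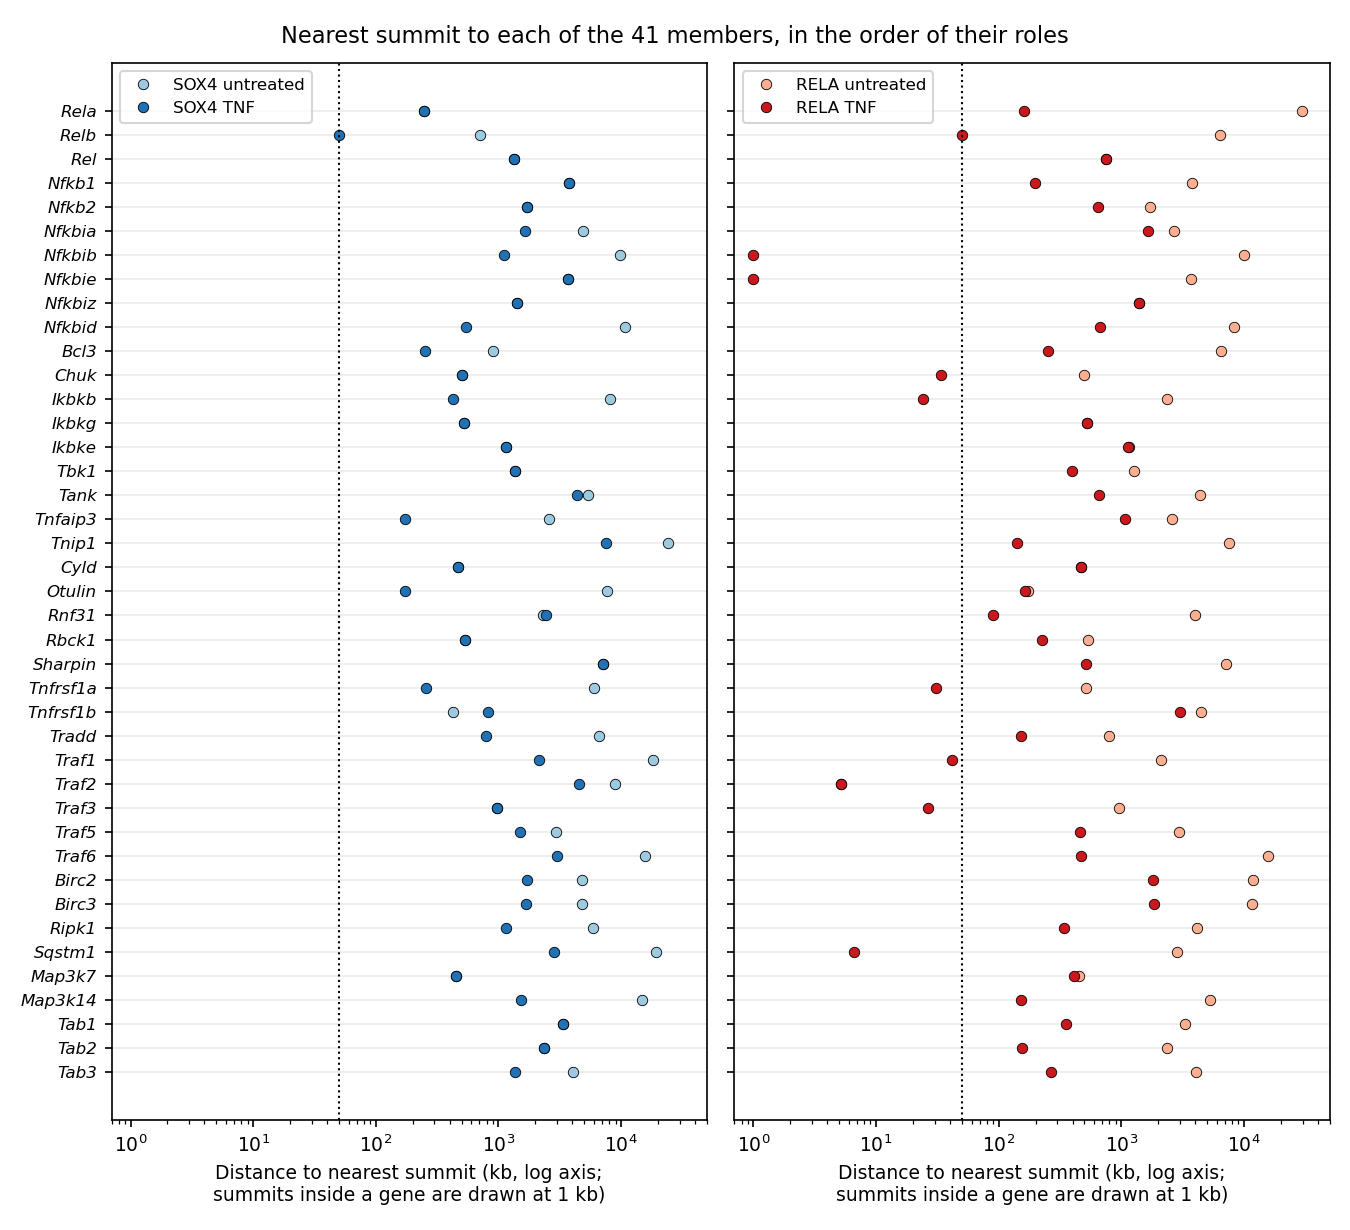
Distance in kb (log axis) from each of the 41 genes to the nearest summit of each list, with the genes in the order of their roles. Summits inside a gene body are drawn at 1 kb and the dotted line marks 50 kb, and 7 genes have a counted RELA TNF summit to its left while the points of Chuk and Ikbkb there are downstream summits.

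The starts of the 41 genes were searched for the NF-κB consensus, the site that the dimers are known to bind. The consensus, a 10-base pattern searched on both strands with overlapping matches merged to 1 gene, was present from 250 bases before to 50 after the start in 12 of the 41 genes (29.3%, Wilson interval 17.6% to 44.5%) and in 4.89% (4.61% to 5.18%) of 21938 protein-coding gene starts. The 12 were Relb, Rel, Nfkb1, Nfkbia, Nfkbie, Nfkbiz, Bcl3, Tnip1, Traf3, Map3k7, Cyld and Sqstm1. Of these, 3 held a RELA TNF peak (Nfkbie, Traf3 and Sqstm1) and 9 did not, beside 17.1% of the 41 genes and 9.25% of all protein-coding genes with such a peak. The share among all genes with the consensus at their start is not given here, so these counts are a description. Matches at 6 starts of genes without a peak are shown, with the consensus in capitals and each stretch written 5′ to 3′ on the gene's own strand (GRCm38/mm10), to give the sequences at which no RELA summit was listed.
Nfkbia, chr12:55492657-55492686, minus strand: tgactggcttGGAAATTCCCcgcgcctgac
Nfkb1, chr3:135691498-135691526, minus strand: cgacgtcagtGGGAATTTCCagccaggaa
Relb, chr7:19629443-19629472, minus strand: cggcggcgccGGGGAATTCCgccgccccgc
Rel, chr11:23771042-23771071, minus strand: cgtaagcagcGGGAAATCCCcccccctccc
Tnip1, chr11:54962978-54963007, minus strand: tccatcatggGGGAATTCCCctcctgcctc
Cyld, chr8:88696863-88696892, plus strand: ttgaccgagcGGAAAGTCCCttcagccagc

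A match of letters is a description and does not show that the factor binds. No summit of any list lay in the 300-base start window of any of the 41 genes. Over all protein-coding genes, the RELA TNF list placed 5 summits in such windows, the RELA untreated list 2 and the SOX4 lists 0. At the summits themselves, 0 of the 7 sites held the NF-κB consensus within 100 bases, and over the whole RELA TNF list it was in 0.440% of windows beside 0.60% of flanking windows 2000 bp away. The SOX consensus (A or T, A or T, C, A, A, A or T, G, either strand) was within 100 bases of 2 of the 7 summits, Nfkbie and Sqstm1, and in 15.7% of RELA TNF windows beside 15.2% of flanks.

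The summit base was soft-masked, that is, part of an annotated repeat, at 5 of 7 sites, all but Traf1 and Traf3, beside 74.9% of the RELA TNF list, 64.5% of RELA untreated, 56.2% of SOX4 TNF and 50% of SOX4 untreated. The 50 bases around each of the 7 summits occurred once in the genome, whereas 10.8% of RELA TNF summits lay in a stretch with further exact copies.

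The 7SL RNA of the signal recognition particle is the sequence from which the B1 repeats of mouse and the Alu repeats of primates derive. Reads were not analysed here, so whether all reads behind the RELA TNF peaks were of mouse origin was not tested, and every RELA TNF value given here carries that limit. In a comparison chosen after the data were seen, each window of 100 bases around a summit was aligned to the mouse 7SL gene Rn7s1. The best local score was 39 at Traf2, 34 at Nfkbie, 32 at Sqstm1, 27 at Nfkbib, 23 at Tnfrsf1a, 22 at Traf3 and 12 at Traf1. Flanking windows of the RELA TNF list reached 14 at their 95th percentile, so 6 of the 7 sites were above it, as were 39.4% of RELA TNF summits. In the other lists 8.02% to 12.0% of summits exceeded the flank percentile. Counting only summits at or below it, 1 of the 41 genes, Traf1, kept a RELA TNF peak, beside 3.55% of all protein-coding genes, and Traf2 lost its RELA untreated peak as well. Counting only summits on bases that are not soft-masked, 2 genes (Traf1 and Traf3) kept one, beside 2.33%. At Traf3 the summit base was not masked, but 75 of the 100 bases around it were. What part repeat sequence has in the peaks was not tested.

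**Figure D5:**
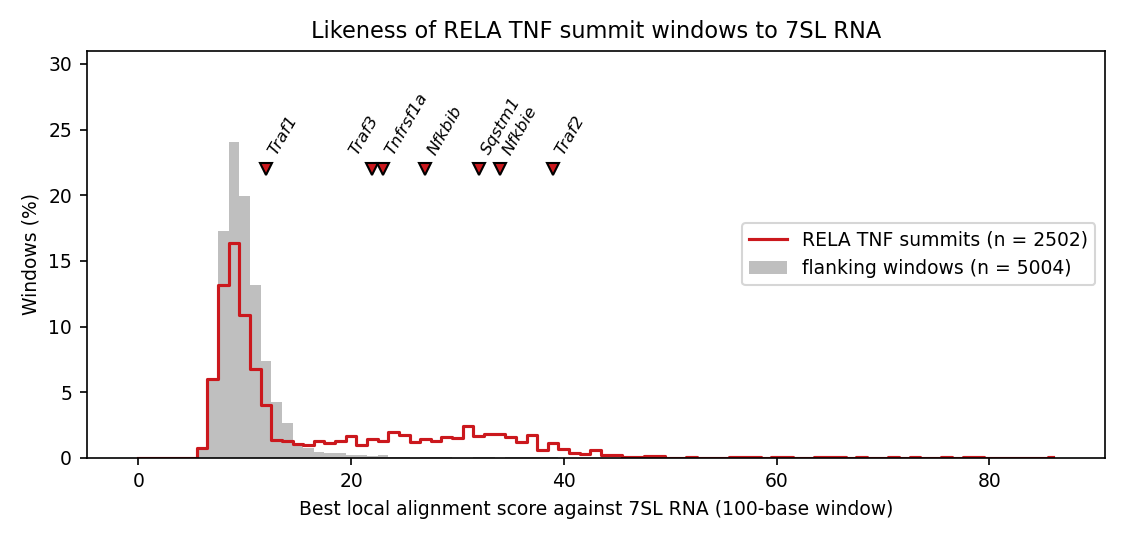
Best local alignment score against 7SL RNA for 100-base windows at the 2502 RELA TNF summits (line) and at 5004 flanking windows (grey), as percent of windows, with the 7 sites of the pathway genes as triangles at an arbitrary height. Of the 7, 6 lie above 14, the 95th percentile of the flanks, and Traf1 lies at 12.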

How the data were processed

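The 4 peak lists of FLS ChIP-seq (SOX4 and RELA, untreated and TNF) were used with all peaks. The authors sequenced single-end reads of 50 bases, mapped them to mm10 and called peaks with MACS (MACS2 in the submitters' processing notes). The aligner is not given in the sources used here. The fold change column deposited with each peak is a ratio of its signal to the background signal. Per the file headers a P score and a Q score are given, which hold the −log10 of the p-value and q-value that MACS computed. Coordinates were taken as counted from 1.

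Summits were assigned with GENCODE release 21 for mouse to genes in the body or up to 50 kb upstream. The members and the lists of genes were chosen with earlier results of these data known. Every peak of a member is described, all members without one are named, and distances are given for 6 textbook targets, of which Relb is also among the 3 closest members, and for those 3. Shares have Wilson 95% intervals, which cover counting error only. No test was made, since each condition is 1 library. As the background, shares of all protein-coding genes and of those of like window length are given. The 7SL score used match 1, mismatch -1, gap opening -2 and extension -1. Assignment, copy counts and motif searches were tested on simulated data. The tools were biopython 1.88, numba 0.67.0, matplotlib 3.10.9, pandas 2.3.3, numpy 2.4.6 and scipy 1.17.1 under Python 3.11.15. The input library's values and the reads were not used here. The sequences at the peak summits are not reported here.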

Additional observations from a re-analysis of the deposited data

How the results depend on the processing

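Alternatives changed one choice at a time, except that taking only the nearest gene start also lifted the limits of 50 kb and of the gene body. Of 71 alternative values of 9 results, 48 stayed close to the reported value and 23 moved. Reversals were not scored, since counts and shares have no direction. With 5 kb upstream, the gene body alone, or summits on bases that are not soft-masked, 0 members held a RELA untreated peak, and 2 held a RELA TNF peak, a peak of any list, and a RELA TNF peak without an untreated one. The 2 were Nfkbib and Nfkbie for both gene limits. With summits at or below the 7SL score of 14, chosen after seeing the data, these counts were 0, 1, 1 and 1. The share of protein-coding genes with a RELA TNF peak was then 4.7%, 4.14%, 2.33% and 3.55%, in this order, and 8.28% with a −log10 q of at least 10, 14.3% with 100 kb (8 members, adding Rnf31), and 8.42% with only the nearest gene start, where 5 members held a peak, 3 of the 7 among them. The other 2, Map3k7 and Tab2, had their nearest RELA TNF summits at 409766 bp and 155269 bp. The other settings that moved a value searched fewer or more bases or used fewer summits, and why the values moved was not tested. Of the RELA TNF summits 39.4% had a 7SL score above 14, as had 6 of the 7 member sites. No paired analysis was possible because no result comes from a test and a condition has a single library.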

Other observations

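A second list of 38 pathway genes (further receptors, adaptors and regulators) had 8 genes with a RELA TNF peak, 21.1% (Wilson 95% interval 11.1% to 36.3%), beside 9.25% of all protein-coding genes. This list too was chosen with earlier results of these data known. No background matched to the window lengths of its genes is given, so the share is a description. The 8 genes held 9 sites, of which 8 were assigned to no member and 7 lay inside the gene. Traf4, an adaptor of the TRAF family, had the highest fold enrichment, 27.9, at a summit 32479 bp upstream in an intron of Proca1. Among the genes of interleukin 1 signalling, Il1r1, its receptor, had 17.5 in intron 1 and Il1rap, the co-receptor, had 10.5 in intron 2. Irak2, a further gene of this signalling, had 15.5 in intron 10. Map3k3, which encodes the kinase MEKK3, had 14.5 in intron 6, and Cflar, which encodes the caspase inhibitor c-FLIP, had 8.98 in intron 1. Otud7b, the gene of the deubiquitinase Cezanne, had 2 sites in intron 2, with 9.48 and 8.19. The Ltbr peak was the one assigned to Tnfrsf1a. Of the 9 sites, 8 had a soft-masked summit and 7 had a 7SL score above 14. Irak4 was the only gene of this list with a SOX4 TNF peak (7.80) or a RELA untreated peak (7.39), with both summits 1 bp apart, at 49498 bp and 49499 bp upstream. For either peak this was 2.63% of the 38 genes. Of all protein-coding genes, 2.03% held a SOX4 TNF peak and 1.51% a RELA untreated peak.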
